A study of Mus musculus with 10 samples.

Results

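The genes examined here encode the Eph receptors and their ephrin ligands, the Slit ligands and their Robo receptors, and the netrins with their receptors of the Dcc, neogenin and Unc5 types. They were chosen by a symbol rule among protein-coding genes. The rule uses no counts, but earlier results of these data were known when the set was chosen. It gave 41 of the 55414 gene IDs in the files, 24 receptors and 17 ligands. All 41 were among the 18005 genes that passed the filter on low counts. RNA sequencing was run on trigeminal ganglia, the ganglia of the face's sensory neurons, from C57Bl6 mouse embryos at stage E13.5. The 5 knockout (mutant) libraries were Prdm12-/- and the 5 wild-type libraries Prdm12+/+, and the genotype label of both groups also reads Sox10 Venus+, a label naming the glial and neural crest gene Sox10 together with Venus, a yellow fluorescent protein. The title calls the loss of Prdm12 constitutive, so it is not limited to 1 cell type. The comparison asks how expression in the ganglion differs when Prdm12, a zinc finger gene needed for nociceptor development, is missing.

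These families steer growing axons. Ephrins are bound to the membrane, ephrin-A by a lipid anchor and ephrin-B by a transmembrane segment, and bind Eph receptor tyrosine kinases on neighbouring cells. Slits are secreted and mostly repel axons that carry Robo receptors. Netrins attract axons through Dcc and repel them through Unc5 receptors. The same families act outside neurons, ephrin-B2 and EphB4 for example in arteries and veins.

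Total counts lay between 3258008 (knockout 49) and 33556002 (knockout 16), with 13603690 in knockout 29 and 27308327 to 32045821 in the other 7 libraries. Levels are given in CPM, counts scaled to library size with TMM factors, and a count of 3 corresponds to 0.869 CPM in knockout 49, to 0.236 CPM in knockout 29 and to at most 0.107 CPM elsewhere. Prdm12 stood at 8.74, 42.7, 10.1, 12.2 and 17.0 CPM in knockout 16, 29, 42, 49 and 50, against 148, 178, 246, 264 and 74.3 CPM in wild-type 22, 24, 32, 35 and 45. The groups did not overlap (log2 fold change -3.32, SE 0.49, edgeR adjusted p = 0.0156). The Prdm12 call was lost without knockout 49 (edgeR adjusted p = 0.0561), without knockout 50 (edgeR adjusted p = 0.0616) and without wild-type 32 and 35 together (edgeR adjusted p = 0.110). The sensory neuron gene Pou4f1 was present in every library, at 66.6 to 226 CPM in mutant ganglia and 123 to 256 CPM in wild-type ganglia. The libraries came from dissected ganglia with no sorting named, so fewer cells of a type and less RNA per cell cannot be told apart. Some libraries stood apart in their makeup. Wild-type 32 and 35 had the lowest summed levels of 9 mesenchyme markers, 920 and 1202 CPM, against 2960 to 11179 CPM in mutant ganglia and 4745 to 6423 CPM in the other wild-type libraries. Knockout 16 had the highest sum of 10 central nervous system markers (195 CPM, with 3.31 to 31.9 CPM in the remaining mutants and 1.16 to 46.0 CPM in wild-type ganglia). Knockout 29 had the highest sum of 9 glial markers (5464 CPM, with 1642 to 2310 CPM in the remaining mutants and 1570 to 2835 CPM in wild-type ganglia).

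No guidance gene passed the threshold of 0.05 on the p adjusted over all tested genes in edgeR's quasi-likelihood test: 0 of 41 were called higher and 0 lower. Over all 18005 genes 0.467% were called, 0.0944% higher and 0.372% lower. A fold change of at least 1.5 in either direction was fitted for 13 guidance genes, and for 16.7% of all genes. The fitted change was above 0 for 30 of the 41 genes (73.2%) and for 46.3% of all genes. The median log2 fold change was 0.40 for the guidance genes and -0.03 for all tested genes. At an unadjusted p under 0.05, 14 guidance genes were higher and 1 was lower, together 36.6% of them, with 13.1% over all genes (6.40% higher and 6.73% lower). Marker lists of cell types had shifts of their own. The median log2 fold change was -2.76 for 10 nociceptor markers (7 called by edgeR, all lower). That list includes Prdm12, the gene removed in the mutants, as 1 of the 7. For 9 mechanoreceptor and proprioceptor markers the median was 0.62 (3 called). Of these 3, Ntrk2 was higher (log2 fold change 1.14), and Mafa (-3.14) and Ret (-1.87) were lower. The median was -0.59 for 10 neuronal, 0.77 for 8 macrophage and 1.11 for 9 endothelial markers (0 called in each of these 3 lists). It was 0.47 for 9 glial, 0.42 for 9 mesenchyme and 2.11 for the 8 tested central nervous system markers, also with 0 called. The nociceptor markers summed to 114 to 253 CPM in mutant ganglia and 1052 to 2354 CPM in wild-type ganglia. The part of these cell types in the guidance gene median was not tested. By role, 17 of 24 receptors and 13 of 17 ligands had a fitted change above 0. Leaving out knockout 16 alone gave 8 higher and 1 lower, with 14.7% over all genes and a guidance gene median of 0.30. Leaving out wild-type 35 alone gave 8 higher and 0 lower, with 8.68% over all genes. Without wild-type 32 and 35, 8 were higher and 1 lower at an unadjusted p under 0.05, while the share over all genes was 6.62%, and the median was 0.34. The knockout and wild-type libraries did not overlap for 2 of the 41 genes, Efnb2 and Unc5b, both higher in mutant ganglia. That is 4.88% of them, and the background was 4.21% in either direction, 1.29% for higher and 2.92% for lower genes. DESeq2 called 5 guidance genes higher (Efna1, Efnb2, Epha2, Robo3 and Unc5b) and 0 lower, while it called 3.54% of all genes, and 2.22% of all genes as higher.

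**Figure D1:**
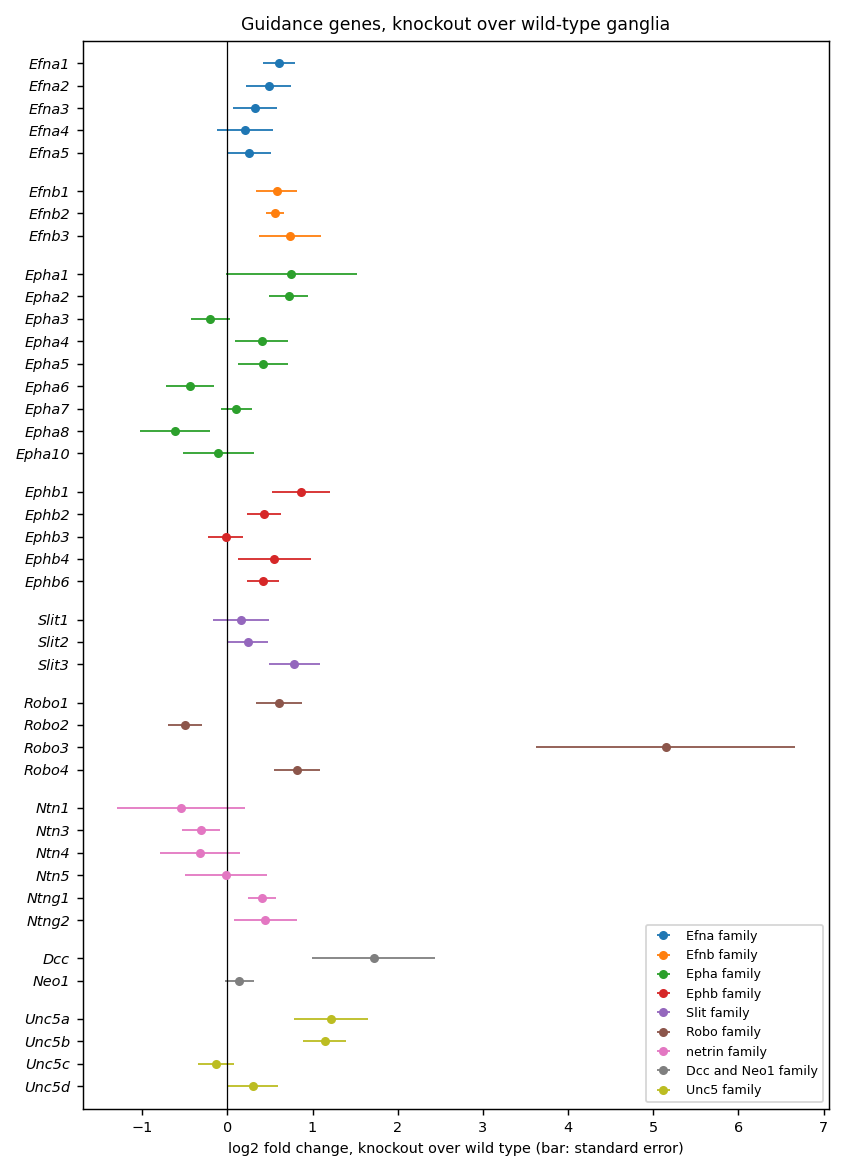
Log2 fold change of each of the 41 guidance genes, knockout over wild type, with the standard error as a bar; colours mark the families. All 8 ephrin genes lie to the right of 0, Robo3 lies farthest out at 5.15 with the widest bar, and 4 of the 6 netrin genes lie to the left of 0.

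Of the 17 ligands, Efnb2 had the smallest p. Efnb2, which encodes the transmembrane ligand ephrin-B2, stood at 169.7, 189, 175, 199.5 and 202 CPM in knockout 16, 29, 42, 49 and 50, against 122.6, 143, 119.5, 129.7 and 121 CPM in wild-type 22, 24, 32, 35 and 45. Every knockout library lay above every wild-type library. The means were 187 ± 14.5 CPM in mutant ganglia and 127 ± 9.54 CPM in wild-type ganglia (n = 5 each, SD), a log2 fold change of 0.56 (SE 0.11, edgeR adjusted p = 0.0517). Efnb2 was called in 7 of 19 alternative analyses, among them the fits without knockout 29 (edgeR adjusted p = 0.0435) and without wild-type 24 (edgeR adjusted p = 0.0299). Without wild-type 32 and 35 its log2 fold change was 0.59, with an edgeR adjusted p of 0.364. Efnb1, encoding ephrin-B1 on the X chromosome, stood at 129, 243, 188, 132 and 139 CPM in knockout 16, 29, 42, 49 and 50, against 126, 167, 79.8, 89.4 and 93.7 CPM in wild-type 22, 24, 32, 35 and 45. Its groups overlapped in the range set by wild-type 24 (log2 fold change 0.58, SE 0.24, edgeR adjusted p = 0.342). Efnb3, encoding the ephrin-B3 that repels axons at the midline, averaged 93.2 ± 28.6 CPM in mutant ganglia and 55.9 ± 28.9 CPM in wild-type ganglia, where wild-type 32 and 35 held the lowest values, 24.04 and 27.1 CPM.

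The upstream sequences of Efnb2, Unc5b and Robo3 are given because the first 2 separated the genotypes in every library and the last differed most between libraries. They come from RefSeq on GRCm38.p6, cover the 250 bases before the annotated start, run 5′ to 3′ on the gene's strand, and have GC boxes (GGGCGG or its reverse complement) in capitals. Efnb2 lies on the minus strand and its window is chr8:8661243-8661492.
Efnb2: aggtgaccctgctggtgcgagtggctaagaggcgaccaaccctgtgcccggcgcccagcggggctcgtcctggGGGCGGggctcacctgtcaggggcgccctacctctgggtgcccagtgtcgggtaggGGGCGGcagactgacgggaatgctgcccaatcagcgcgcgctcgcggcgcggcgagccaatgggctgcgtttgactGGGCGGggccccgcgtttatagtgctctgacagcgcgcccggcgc
This window held 3 GC boxes, 1 TATAAA match on the reverse strand and 27 CpG dinucleotides, with a GC content of 72.0%. Windows were found for 36 of the 41 genes, 41 windows in all, and had a median GC content of 64.8%, with 52.4% over all 32851 RefSeq windows. On either strand, GGGCGG occurred in 28 of the 41 guidance gene windows and in 32.7% of all windows. TATAAA occurred in 2 guidance gene windows and in 12.4% of all windows, and CANNTG in 18 guidance gene windows and in 66.2% of all windows.

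Ephrin-A genes all had a fitted change above 0 and none was called. Efna1, an ephrin-A ligand of developing vessels and neurons, stood at 13.1, 20.6, 22.9, 17.1 and 20.5 CPM in knockout 16, 29, 42, 49 and 50, against 14.2, 13.7, 9.53, 11.5 and 13.1 CPM in wild-type 22, 24, 32, 35 and 45. Apart from knockout 16, the knockout libraries lay above the wild type (log2 fold change 0.60, SE 0.19, edgeR adjusted p = 0.221). Efna5, encoding the ephrin-A5 known from retinal map formation, had the highest mean of the group. It stood at 47.4, 47.8, 77.8, 83.7 and 46.5 CPM in knockout 16, 29, 42, 49 and 50, against 72.5, 56.4, 31.9, 37.7 and 54.0 CPM in wild-type 22, 24, 32, 35 and 45. The ranges overlapped widely (log2 fold change 0.26, SE 0.25, edgeR adjusted p = 0.669). Efna2 averaged 35.2 ± 13.8 CPM in mutant ganglia and 25.1 ± 7.04 CPM in wild-type ganglia, and Efna4 20.6 ± 5.43 CPM in mutants and 17.8 ± 8.48 CPM in wild types. Efna3 was at 43.0 CPM in knockout 29, with the remaining mutants at 16.8 to 21.99 CPM, against 16.2 to 24.9 CPM in wild-type ganglia.

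Among the 9 EphA receptors, Epha2 had the smallest p. Epha2, a receptor found in epithelia and vessels as well as neural tissue, stood at 8.27, 14.3, 14.0, 14.2 and 12.4 CPM in knockout 16, 29, 42, 49 and 50, against 8.41, 7.83, 5.65, 6.11 and 10.3 CPM in wild-type 22, 24, 32, 35 and 45. The other 4 knockout libraries lay above the wild type, while knockout 16 lay within its range (log2 fold change 0.72, SE 0.23, edgeR adjusted p = 0.223). Epha7, a repulsive receptor with broad neural expression, had the highest mean of the EphA genes. It stood at 143, 112, 187, 142 and 202 CPM in knockout 16, 29, 42, 49 and 50, against 150, 109, 168, 162 and 143 CPM in wild-type 22, 24, 32, 35 and 45. Its interval was narrow for this set (log2 fold change 0.10, SE 0.18, edgeR adjusted p = 0.825).

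Epha4, a receptor that binds ephrins of both classes, was at 24.2 CPM in knockout 29, with the remaining mutants at 55.3 to 72.4 CPM, against 29.4 to 63.4 CPM in wild-type ganglia. Epha3 averaged 46.3 ± 13.3 CPM in mutant ganglia and 53.1 ± 13.1 CPM in wild-type ganglia, and Epha5 46.1 ± 24.8 CPM in mutants and 34.7 ± 5.86 CPM in wild types. Epha6, Epha8 and Epha10 were highest in wild-type 32 and 35, where Epha10 reached 149 and 127 CPM, while it lay between 56.5 and 114 CPM in mutant ganglia and between 21.6 and 71.4 CPM in the other wild-type libraries. The log2 fold change of Epha10 was -0.10 (SE 0.41) with all libraries and 0.67 without wild-type 32 and 35. Epha1 was low, at 13.0 CPM in knockout 49, with the remaining mutants at 0.978 to 2.99 CPM, against 0.589 to 3.87 CPM in wild-type ganglia. The sum of 7 epithelial markers was also highest in knockout 49, 354 CPM, with 24.2 to 81.6 CPM in the remaining mutants and 10.04 to 75.0 CPM in wild-type ganglia. Its part in the Epha1 value was not tested.

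EphB receptors bind mainly ephrin-B ligands. Ephb2, a kinase of axon sorting and synapse formation, stood at 189, 155, 115, 108 and 124 CPM in knockout 16, 29, 42, 49 and 50, against 108, 143, 75.4, 94.0 and 91.8 CPM in wild-type 22, 24, 32, 35 and 45 (log2 fold change 0.43, SE 0.20, edgeR adjusted p = 0.387). Knockout 16 and 29 lay above all wild-type libraries and the remaining mutants within their range. Ephb1, another axon guidance kinase, stood at 52.9, 18.7, 14.2, 18.2 and 31.5 CPM in knockout 16, 29, 42, 49 and 50, against 13.8, 17.7, 11.8, 11.5 and 19.9 CPM in wild-type 22, 24, 32, 35 and 45. Its log2 fold change was 0.87 (SE 0.34, edgeR adjusted p = 0.322), and 0.47 without knockout 16. Ephb6, whose kinase domain lacks catalytic activity, averaged 30.5 ± 8.60 CPM in mutant ganglia and 22.8 ± 1.31 CPM in wild-type ganglia (edgeR adjusted p = 0.374). Ephb3 averaged 46.6 ± 9.57 CPM in mutant ganglia and 47.1 ± 13.1 CPM in wild-type ganglia.

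Ephb4, the venous partner of ephrin-B2, ranged from 81.2 to 153 CPM in mutant ganglia and from 23.1 to 133 CPM in wild-type ganglia, with 23.1 and 33.2 CPM in wild-type 32 and 35. Its log2 fold change of 0.55 (SE 0.43, edgeR adjusted p = 0.581) became 0.09 without these libraries. The summed level of 9 endothelial markers lay between 450 and 1143 CPM in mutant ganglia and between 246 and 565 CPM in wild-type ganglia. All 9 were detected and tested, 0 were called, and their median log2 fold change was 1.11. The part of endothelial RNA in the values of Efnb2, Ephb4, Robo4 and Unc5b was not tested.

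**Figure D2:**
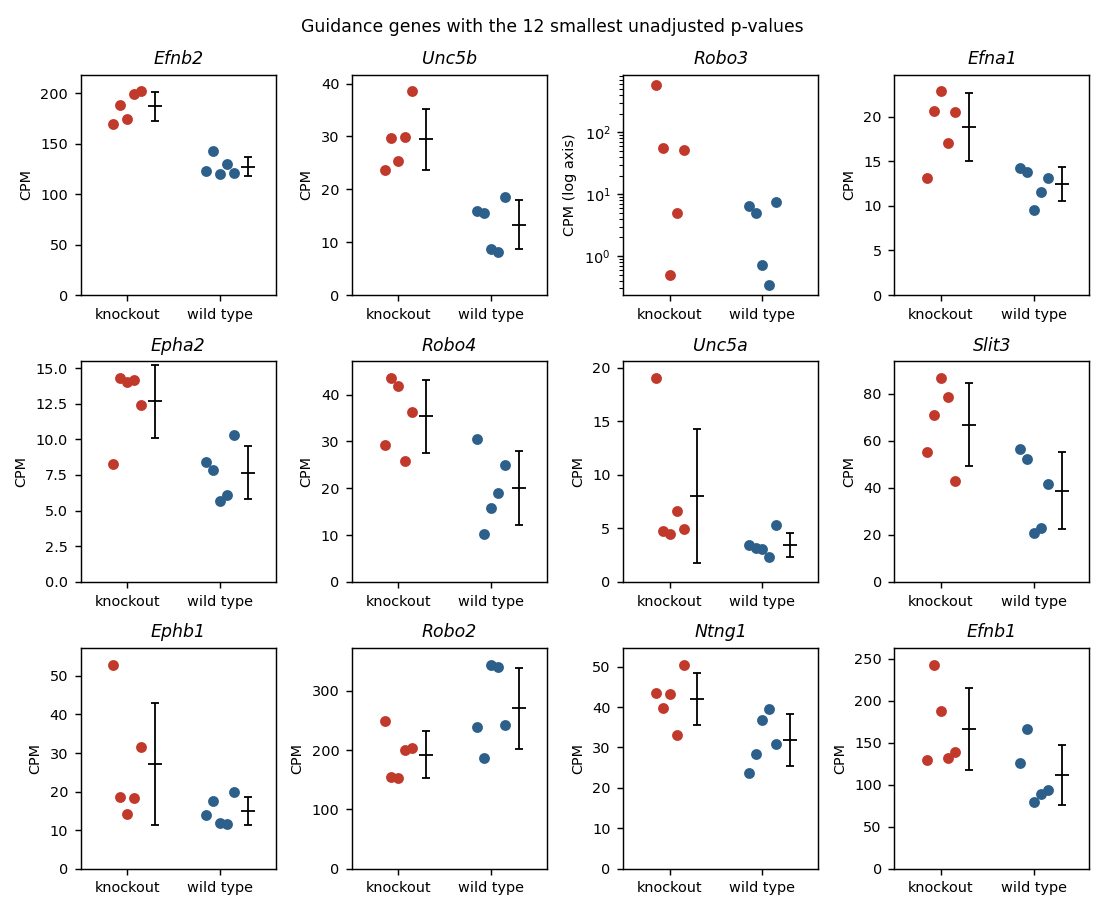
CPM in each library for the 12 guidance genes with the smallest unadjusted p, knockout points on the left and wild-type points on the right of each panel; bars give the mean ± SD of 5 libraries, and Robo3 has a log axis and no bar. Efnb2 and Unc5b are separated between the genotypes in every library, and the other 10 overlap.

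Of the 4 Robo receptors, Robo3 had the widest spread between libraries. Robo3, a divergent Robo that lets commissural axons of the hindbrain and spinal cord cross the midline, stood at 591, 55.1, 0.498, 4.92 and 51.5 CPM in knockout 16, 29, 42, 49 and 50. Wild-type 22, 24, 32, 35 and 45 had 6.54, 4.92, 0.727, 0.341 and 7.36 CPM. Knockout 16 stood far above every other library, knockout 29 and 50 above the wild type, and knockout 42 and 49 within the wild-type range. The fitted log2 fold change was 5.15 (SE 1.52, edgeR adjusted p = 0.197), and 2.83 without knockout 16 (edgeR adjusted p = 0.296). The sum of central nervous system markers was 195, 27.0, 3.31, 26.1 and 31.9 CPM in knockout 16, 29, 42, 49 and 50, against 9.98, 46.0, 1.66, 1.16 and 30.6 CPM in wild-type 22, 24, 32, 35 and 45. Of these 10 markers 8 were tested and 0 called; Olig2 and Gbx2 did not pass the filter. Knockout 16 had the highest marker sum and the highest Robo3 level. Knockout 42 and wild-type 32 and 35 had the lowest marker sums and the lowest Robo3 levels. Wild-type 24 had the second highest sum and a Robo3 level below that of wild-type 22 and 45. The part of central nervous system RNA in the Robo3 value was not tested. Robo3 lies on the minus strand and its upstream window is chr9:37433176-37433425.
Robo3: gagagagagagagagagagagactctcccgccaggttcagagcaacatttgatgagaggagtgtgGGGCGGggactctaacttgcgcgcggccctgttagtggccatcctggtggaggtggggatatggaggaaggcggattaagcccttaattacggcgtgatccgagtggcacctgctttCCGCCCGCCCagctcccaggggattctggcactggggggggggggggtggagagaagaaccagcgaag
This window held 3 GC boxes, 2 of them overlapping, and 12 CpG dinucleotides, with a GC content of 61.2%, and no TATAAA.

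Robo2, the receptor with the highest mean of the family in CPM, was the 1 guidance gene lower in mutant ganglia at an unadjusted p under 0.05. It stood at 249, 154, 154, 200.4 and 204 CPM in knockout 16, 29, 42, 49 and 50, against 239, 187, 344, 339.7 and 243 CPM in wild-type 22, 24, 32, 35 and 45. Wild-type 32 and 35 were above all other libraries and the other 3 wild-type libraries within mutant ganglia range (log2 fold change -0.49, SE 0.20, edgeR adjusted p = 0.337). Without those 2 libraries the log2 fold change was -0.16. The summed level of 10 neuronal markers was also highest in wild-type 32 and 35, 14593 and 14983 CPM, with 5731 to 13200 CPM in mutant ganglia and 8263 to 10471 CPM in the other wild-type libraries. Robo1, its relative with a similar role in Slit repulsion, stood at 247, 128, 151, 186 and 141 CPM in knockout 16, 29, 42, 49 and 50, against 158, 139, 63.5, 74.3 and 128 CPM in wild-type 22, 24, 32, 35 and 45. Here wild-type 32 and 35 were the lowest (log2 fold change 0.60, SE 0.27, edgeR adjusted p = 0.374). Robo4, an endothelial receptor, stood at 29.3, 43.6, 41.9, 25.8 and 36.3 CPM in knockout 16, 29, 42, 49 and 50, against 30.5, 10.3, 15.8, 19.0 and 24.9 CPM in wild-type 22, 24, 32, 35 and 45. Its ranges overlapped through wild-type 22 (log2 fold change 0.82, SE 0.27, edgeR adjusted p = 0.247).

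All 3 Slit ligands were detected in every library. Slit1 stood at 96.7, 138, 61.8, 51.8 and 94.9 CPM in knockout 16, 29, 42, 49 and 50, against 54.0, 42.2, 115, 118 and 68.2 CPM in wild-type 22, 24, 32, 35 and 45 (log2 fold change 0.17, SE 0.33, edgeR adjusted p = 0.853). The groups overlapped over almost their whole range. Slit2 averaged 78.6 ± 26.7 CPM in mutant ganglia and 66.4 ± 14.2 CPM in wild-type ganglia. Slit3, also made by mesenchymal tissue, stood at 55.2, 71.0, 86.9, 78.8 and 43.0 CPM in knockout 16, 29, 42, 49 and 50, against 56.4, 52.1, 20.8, 22.9 and 41.5 CPM in wild-type 22, 24, 32, 35 and 45. The lowest values again came from wild-type 32 and 35, and the log2 fold change was 0.79 (SE 0.30, edgeR adjusted p = 0.308) with and 0.47 without them.

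Of the 6 netrin genes, 4 had a fitted change below 0, and none was called. Ntn1, encoding the secreted netrin-1, ranged from 11.8 to 39.6 CPM in mutant ganglia and from 2.08 to 78.1 CPM in wild-type ganglia (log2 fold change -0.55, SE 0.75, edgeR adjusted p = 0.772). Its lowest values, 2.08 and 5.60 CPM, were in wild-type 32 and 35. Ntn3, a netrin known from sensory ganglia, had the highest mean CPM of the family over all libraries. It stood at 36.3, 54.3, 50.2, 36.2 and 29.7 CPM in knockout 16, 29, 42, 49 and 50, against 65.7, 69.1, 39.1, 41.2 and 41.5 CPM in wild-type 22, 24, 32, 35 and 45 (edgeR adjusted p = 0.553). Ntn4, a basement membrane netrin, ranged from 1.16 to 13.1 CPM in mutant ganglia and from 5.16 to 11.9 CPM in wild-type ganglia, and Ntn5 from 2.90 to 9.21 CPM in mutants and from 1.37 to 12.5 CPM in wild types.

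The netrin-G proteins are lipid-anchored and bind partners other than Dcc and Unc5. Ntng1 stood at 43.5, 39.8, 43.3, 33.0 and 50.5 CPM in knockout 16, 29, 42, 49 and 50, against 23.6, 28.4, 36.7, 39.6 and 30.9 CPM in wild-type 22, 24, 32, 35 and 45. Knockout 49 lay within the wild-type range and the remaining mutants above it (log2 fold change 0.40, SE 0.17, edgeR adjusted p = 0.341). Ntng2 was at 59.7 CPM in knockout 29, with the remaining mutants at 17.4 to 18.6 CPM, against 13.4 to 26.9 CPM in wild-type ganglia. Its log2 fold change was 0.44 with all libraries and -0.07 without knockout 29, the library with the highest glial marker sum. The part of glial RNA in this value was not tested.

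Of the netrin receptors, Unc5b had the smallest p. Unc5b, an Unc5 receptor of vessels as well as neurons, stood at 23.6, 29.7, 25.4, 29.8 and 38.6 CPM in knockout 16, 29, 42, 49 and 50, against 15.8, 15.4, 8.70, 8.06 and 18.6 CPM in wild-type 22, 24, 32, 35 and 45. Every knockout library lay above every wild-type library, at 29.4 ± 5.79 CPM in mutant ganglia and 13.3 ± 4.69 CPM in wild-type ganglia (n = 5 each, SD). The log2 fold change was 1.14 (SE 0.25, edgeR adjusted p = 0.0839), and 0.87 without wild-type 32 and 35 (edgeR adjusted p = 0.286). Unc5b was called in 3 of 19 alternatives. It lies on the minus strand and its upstream window is chr10:60831582-60831831.
Unc5b: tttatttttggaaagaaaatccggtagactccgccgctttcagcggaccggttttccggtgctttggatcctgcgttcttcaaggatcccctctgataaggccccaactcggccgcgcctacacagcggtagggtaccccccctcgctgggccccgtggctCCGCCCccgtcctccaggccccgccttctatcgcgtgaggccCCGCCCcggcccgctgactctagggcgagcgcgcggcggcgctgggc
This window held 2 GC boxes and 27 CpG dinucleotides, with a GC content of 66.8%, and neither TATAAA nor CANNTG.

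Unc5a, the related receptor of repulsion by netrin-1, stood at 19.1, 4.80, 4.52, 6.66 and 4.93 CPM in knockout 16, 29, 42, 49 and 50, against 3.44, 3.13, 3.05, 2.36 and 5.35 CPM in wild-type 22, 24, 32, 35 and 45. The overlap came from wild-type 45 alone. The log2 fold change of 1.22 (SE 0.43, edgeR adjusted p = 0.277) was 0.57 without knockout 16. Dcc, the receptor for attraction to netrin-1, stood at 169.6, 8.10, 10.7, 49.8 and 27.4 CPM in knockout 16, 29, 42, 49 and 50, against 13.8, 19.2, 12.8, 9.73 and 25.5 CPM in wild-type 22, 24, 32, 35 and 45. Knockout 16 was again the highest and knockout 29 the lowest of all 10 libraries (log2 fold change 1.72, SE 0.72, edgeR adjusted p = 0.346). Without knockout 16 the log2 fold change of Dcc was 0.53. Epha5 was likewise highest in knockout 16, at 89.1 CPM, with 25.9 to 41.5 CPM in the remaining mutants and 26.5 to 39.9 CPM in wild-type ganglia. Robo3, Dcc, Unc5a and Epha5 were the 4 of 41 guidance genes whose level in knockout 16 was at least 2 times that of any other library, a pattern found in 1.06% of all genes. In all, 12 guidance genes had their highest value in knockout 16 (6.98% of all genes) and 7 in knockout 29 (20.9% of all genes), where Ntng2 alone was at least 2 times any other library (0.978% of all genes).

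Neo1, encoding neogenin, a Dcc relative that also binds repulsive guidance molecules, varied little. It stood at 239, 184, 309, 291 and 225 CPM in knockout 16, 29, 42, 49 and 50, against 286, 191, 197, 212 and 245 CPM in wild-type 22, 24, 32, 35 and 45 (log2 fold change 0.14, SE 0.17, edgeR adjusted p = 0.739). Unc5c was the Unc5 gene with the highest mean CPM. It stood at 112, 53.9, 97.3, 96.7 and 73.4 CPM in knockout 16, 29, 42, 49 and 50, against 116, 65.7, 101, 87.6 and 107 CPM in wild-type 22, 24, 32, 35 and 45. The groups overlapped over most of their range (log2 fold change -0.14, SE 0.21, edgeR adjusted p = 0.801). Unc5d was at 30.1 CPM in knockout 49, with the remaining mutants at 8.03 to 17.4 CPM, against 11.1 to 14.2 CPM in wild-type ganglia.

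**Figure D3:**
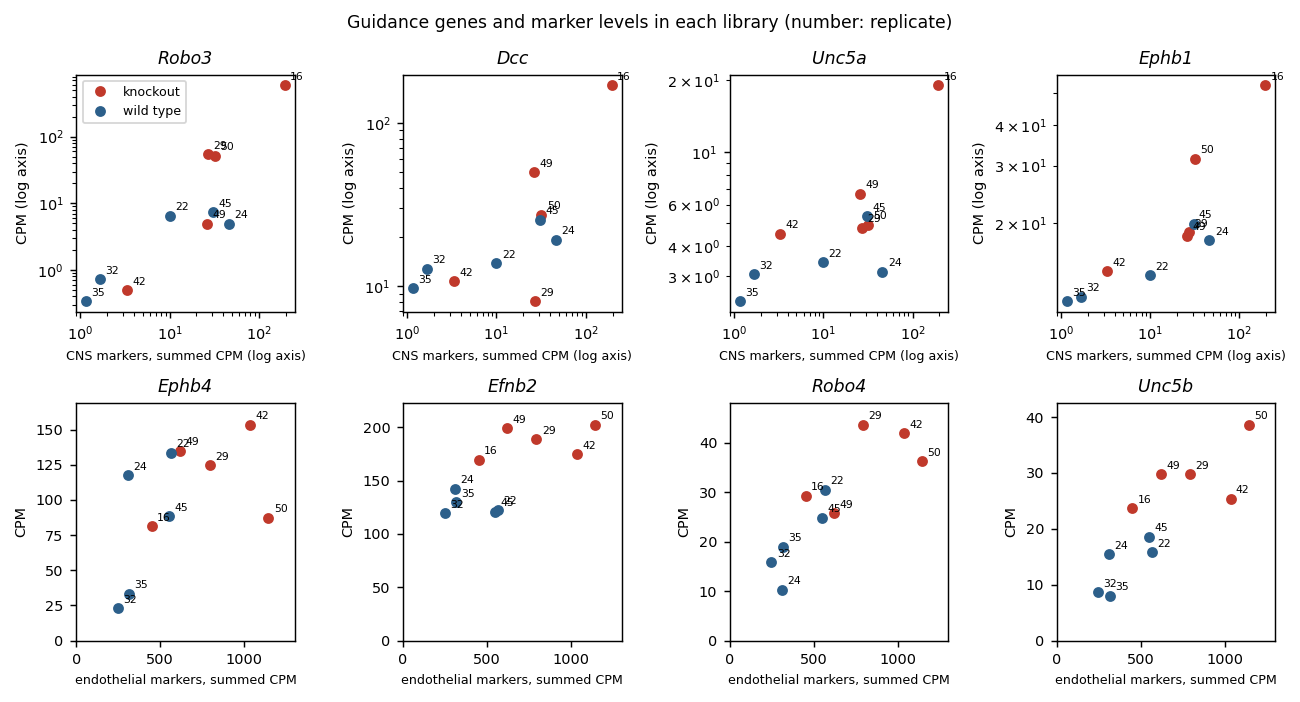
Each point is 1 library, labelled with its replicate number. The upper row plots CPM of Robo3, Dcc, Unc5a and Ephb1 against the summed CPM of 10 central nervous system markers on log axes, and the lower row CPM of Ephb4, Efnb2, Robo4 and Unc5b against the summed CPM of 9 endothelial markers; knockout 16 lies at the upper right of each upper panel, at 591 CPM for Robo3.

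Wild-type 32 and 35 marked the ends of the range for many guidance genes. Both lay below the other 8 libraries for 14 of the 41 genes: Efna1, Efna4, Efna5, Efnb1, Efnb3, Epha1, Epha2, Ephb1, Ephb4, Ntn1, Robo1, Slit3, Unc5a and Unc5b. Both lay above them for 4, Epha6, Epha8, Epha10 and Robo2. Over all tested genes the low pattern was found in 15.4% and the high pattern in 14.7%. The same libraries had the lowest mesenchyme, macrophage, erythroid, epithelial and central nervous system marker sums, and the highest neuronal sums. Their nociceptor sums were also the highest, 2354 and 2183 CPM, against 1052 to 1229 CPM in the other wild-type libraries. The part of these cell types in the guidance gene values was not tested. The SD of log2 CPM within a genotype had a median over the guidance genes of 0.42 in mutant ganglia and 0.43 in wild-type ganglia, while over all tested genes it was 0.38 in mutants and 0.34 in wild types.

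Levels of different genes were compared per kilobase of annotated exon, which overstates the length of genes with long alternative exons. On this scale Efnb1 was the highest guidance gene in wild-type ganglia, with a median of 40.2 CPM per kb in mutant ganglia and 27.1 CPM per kb in wild-type ganglia. Next by the wild-type median came Neo1, at 27.5 CPM per kb in mutants and 24.4 in wild types, and Efnb3, at 35.1 CPM per kb in mutants and 20.3 in wild types. Ephb4 had 26.9 CPM per kb in mutants and 19.0 in wild types, and Efnb2 had 27.5 in mutants and 17.9 in wild types. The ranges of these genes overlapped between neighbours in wild-type ganglia, while Efnb2 lay below both Efnb1 and Neo1 in every wild-type library. Epha1 had the lowest median, 0.362 CPM per kb in mutant ganglia and 0.496 CPM per kb in wild-type ganglia. Summed per kb, the 3 ephrin-B genes reached 91.0 to 116 in mutant ganglia and 48.1 to 92.6 CPM per kb in wild-type ganglia, and the 5 ephrin-A genes 50.6 to 84.7 CPM per kb in mutants and 36.6 to 62.2 in wild types. The 9 EphA receptors summed to 46.2 to 59.5 in mutant ganglia and 33.7 to 60.9 CPM per kb in wild-type ganglia, and the 5 EphB receptors to 44.1 to 61.0 CPM per kb in mutants and 23.8 to 54.9 in wild types. Within the Robo family, Robo2 held a median of 34.4% of the summed level per kb in mutant ganglia (12.1 to 41.2%) and 51.5% in wild-type ganglia (46.4 to 74.5%). The lowest Robo2 share, 12.1%, was in knockout 16, where Robo3 held 71.1%. Within the Unc5 family, Unc5c held 34.4% in mutant ganglia (29.4 to 43.6%) and 55.7% in wild-type ganglia (43.7 to 60.4%), and Unc5b 34.8% in mutant ganglia (23.5 to 49.7%) and 23.3% in wild-type ganglia (15.9 to 31.4%). The 2 Unc5c ranges nearly met. A share also depends on the other genes of the family, and the log2 fold change was -0.14 for Unc5c itself and 1.14 for Unc5b.

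**Figure D4:**
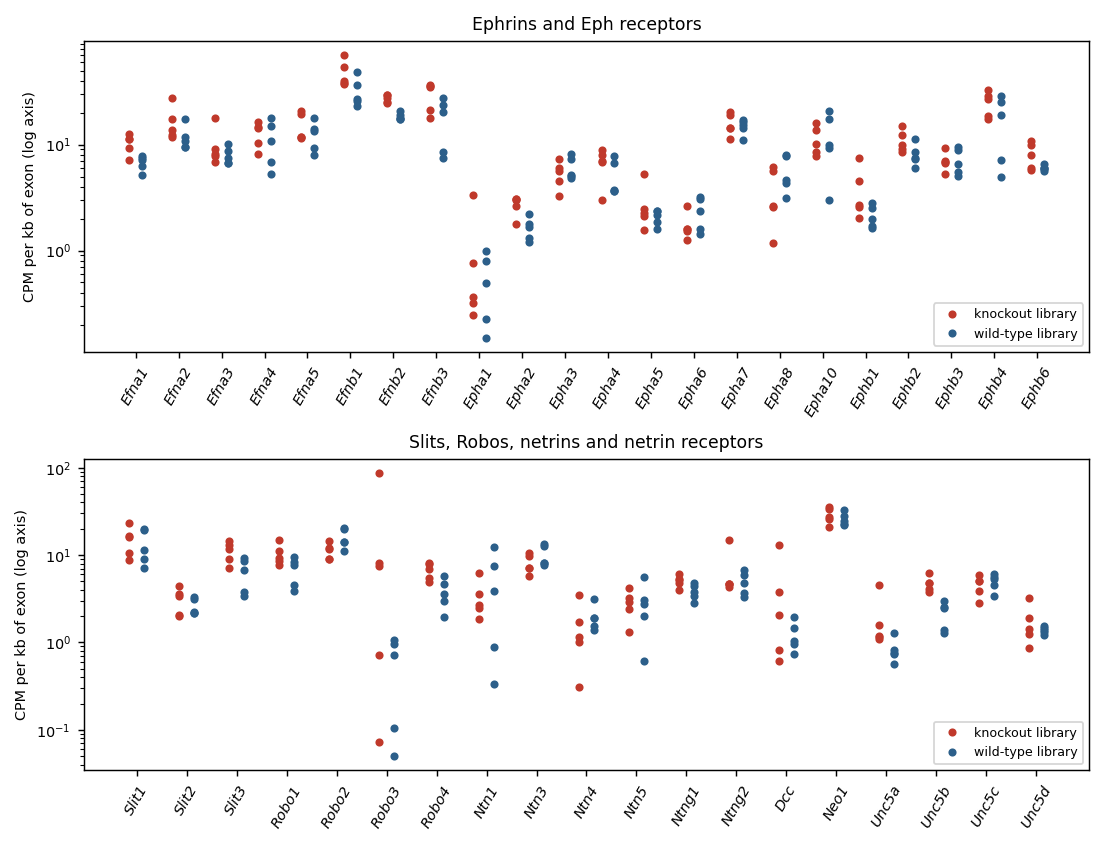
CPM per kb of exon on a log axis in each library for the 22 ephrin and Eph genes (upper panel) and the 19 Slit, Robo and netrin pathway genes (lower panel), knockout to the left of wild type for each gene. Efnb1 lies highest among the ephrins and Robo3 spans the widest range, from 0.0499 to 86.3 CPM per kb.

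Cytoplasmic effectors and extracellular partners of these pathways were described from a list of 43 genes. All 43 were tested, 0 were called higher and 0 lower by edgeR, and 5 were higher and 1 lower at an unadjusted p under 0.05. These 6 are 14.0% of the list, near the 13.1% over all genes. Their median log2 fold change was 0.10. The 3 with the smallest p were Adam10, Sdc3 and Srgap2. Adam10, a membrane protease that sheds ephrins and other guidance proteins, stood at 216, 209.6, 258, 267 and 304 CPM in knockout 16, 29, 42, 49 and 50, against 411, 385, 601, 614 and 406 CPM in wild-type 22, 24, 32, 35 and 45. It was the 1 gene of the list whose groups did not overlap, 2.33% of the list and below the 4.21% over all genes (log2 fold change -0.95, SE 0.18, edgeR adjusted p = 0.0517). Without wild-type 32 and 35 its log2 fold change was -0.63 (edgeR adjusted p = 0.388). Sdc3, a heparan sulfate proteoglycan of axons, averaged 254 ± 50.8 CPM in mutant ganglia and 155 ± 41.4 CPM in wild-type ganglia (n = 5 each, SD; edgeR adjusted p = 0.169). Srgap2, whose protein binds Robo receptors, averaged 123.3 ± 13.6 CPM in mutant ganglia and 89.4 ± 16.4 CPM in wild-type ganglia (n = 5 each, SD; edgeR adjusted p = 0.225). DESeq2 called Adam10 lower and Nell2, Sdc3 and Srgap2 higher, 4 of 43 genes, while it called 3.54% of all genes.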

How the data were processed

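RNA from dissected trigeminal ganglia was sequenced in 10 libraries. The deposited files hold raw counts per Ensembl gene, made by the authors. The submitters' processing notes name featureCounts 1.5.0-p1, the aligner STAR 2.7.10a, bcl2fastq 2.20.0.422, and both GRCm39 and mm10 as builds, without a role for either. Annotation release, strandedness and multi-mapping rules were not given in the sources used here, so reads of overlapping or antisense genes cannot be told apart. Groups and replicate numbers come from the titles, and the letter that opens a title differs between genotypes. Only the wild-type titles add Venus plus, and what this marks is not given. Handling or selection and genotype therefore cannot be told apart. Whether libraries came from separate embryos is not labelled, and the p-values therefore measure only spread among these samples, possibly technical. No pair of libraries within a group agreed within sampling noise (chi-square of at least 9.88 per gene in all 20 pairs).

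Symbols matched 52081 of 55414 IDs. Biotypes and exon lengths (41 of 41 guidance genes) come from GENCODE M21 on GRCm38. Genes were kept with filterByExpr (minimum count 10) and tested with edgeR 4.0.16 (R 4.3.3; TMM, glmQLFit and glmQLFTest, Benjamini-Hochberg adjustment over all 18005 genes, threshold 0.05), knockout over wild type. The standard error is the log2 fold change divided by the square root of its F value. Alternatives used DESeq2 1.42.0, limma 3.58.1 (voom with sample weights), other scaling and filters, and left libraries out. The procedures were tested on simulated data with a capped spread, so that test does not cover genes as variable as Robo3. A larger share of calls on unchanged genes was accepted there for DESeq2 than for edgeR or limma-voom. Named in full are the 12 guidance genes with the smallest p, any past the threshold, the gene with the highest mean CPM in each family, and the 3 partner genes with the smallest p. Other genes were added after their values were seen. The guidance genes and all lists were chosen with earlier results of these data known.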

Additional observations from a re-analysis of the deposited data

Results flagged for a closer look

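In 5 of 82 sets of 5 libraries (41 guidance genes in 2 genotypes), 1 library lay apart from the other 4 on the log2 CPM scale by a gap above Dixon's 95% critical value; chance alone flags about 1 in 20. Knockout 16 was low for Epha2 (8.27 CPM, others 12.4 to 14.3) and high for Unc5a (19.1 CPM, others 4.52 to 6.66). Knockout 29 was low for Epha4 (24.2 CPM, others 55.3 to 72.4) and high for Efna3 (43.0 CPM, others 16.8 to 21.99) and Ntng2 (59.7 CPM, others 17.4 to 18.6). None of the wild-type sets was set apart in this way.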

How the results depend on the processing

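No paired analysis was possible because no replicate number occurs in both genotypes. Of the 41 guidance genes, 26 kept the sign of their log2 fold change in all 19 alternatives, 15 changed it at least once, and 8 were called at least once. The share of all genes called at least once was not computed. Over all genes, the main test called 17 higher and 67 lower. Leaving out 1 library gave 2 to 35 higher and 27 to 88 lower, without wild-type 32 and 35 0 and 19, without knockout 29 and 49 6 higher, with no filter 55 and 102, with DESeq2 399 and 238, and with limma-voom 1264 and 1080. Leaving out knockout 16, wild-type 32 and 35 together, chosen after the values were seen, gave 0 higher and 14 lower. Guidance genes called higher numbered 0 in the main test, 1 with DESeq2 size factors, upper-quartile factors or a minimum count of 50 (Efnb2), 1 with no filter (Unc5b), 5 with DESeq2, 6 with limma-voom, and 0 to 1 when 1 library was left out. The 1 called lower (Robo2) was called with limma-voom. Of all tested genes, limma-voom called 13% (7.02% higher) and DESeq2 3.54% (2.22% higher). In every other setting at most 0.191% of all genes were called higher. Partner genes called higher and lower numbered 3 and 1 with DESeq2 and 7 and 3 with limma-voom, 1 was lower with no filter, and leaving out 1 library gave 0 to 1 higher and 0 lower.

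The log2 fold change turned its sign as follows, and the cause was not tested. Without wild-type 32 and 35 it was -0.13 for Efna4, 0.67 for Epha10 and 0.62 for Ntn5. Without knockout 16 as well it was -0.0489 for Efna4, 0.70 for Epha10, 0.81 for Ntn5, 0.0347 for Epha6, 0.0295 for Epha8 and -0.0214 for Slit2. Without knockout 29 and 49 it was -0.22 for Epha1 and -0.11 for Ntng2. With limma-voom it was -0.0264 for Efna3, -0.16 for Ntng2, -0.19 for Slit1 and 1.20 for Ntn1. With DESeq2 size factors, a minimum count of 50 and DESeq2 it was 0.0376, 0.0432 and 0.0374 for Ephb3, and 0.0385, 0.0467 and 0.0403 for Ntn5. Leaving out 1 library gave -0.32 to 1.11 for Epha1, -0.31 to 0.22 for Epha10, -0.0024 to 0.24 for Epha7, -0.10 to 0.12 for Ephb3, -0.90 to 0.19 for Ntn1, -0.23 to 0.45 for Ntn5, -0.0659 to 0.58 for Ntng2, -0.0162 to 0.37 for Slit1, -0.25 to 0.0317 for Unc5c and -0.032 to 0.50 for Unc5d. Depth limits knockout 49 most: 3 counts are 0.869 CPM there, and Ntn4 stood at 1.16 CPM.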
